A study of Homo sapiens with 33 samples.

Results

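The genes described are the integrin subunits and the laminin chains, taken from the gene table by symbol: every protein-coding gene named as an integrin alpha or beta subunit or as a laminin alpha, beta or gamma chain. This rule used no measured value and found 38 of the 58735 genes in the table, of which 19951 are protein coding. The members are 26 integrin subunits (18 alpha and 8 beta) and 12 laminin chains (5 alpha, 4 beta and 3 gamma).

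Laminins are secreted trimers of an alpha, a beta and a gamma chain that form the core network of basement membranes. Integrins are receptors made of an alpha and a beta subunit that join this and other matrices to the actin cytoskeleton, and the alpha subunit largely sets which ligand is bound. The coelomic epithelium that covers the early gonad rests on a basement membrane, and supporting cell precursors leave this epithelium to enter the gonad.

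The libraries came from H9-DDdCas9VP192-FOXL2 clone 24 cells, a human embryonic stem cell line in which a destabilised, catalytically inactive Cas9 fused to an activator can be directed to FOXL2, a forkhead transcription factor of ovarian supporting cells. All 11 groups carried this activator and were differentiated towards gonadal cells on human collagen I, and were collected at day 4 or on every second day from day 6 to day 14, with (IND) or without (CTRL) doxycycline and trimethoprim from day 4. No group received both compounds without FOXL2 activation, so the compounds and FOXL2 cannot be told apart. The 3 libraries of a group were technical replicates of 1 biological replicate of 1 clone, so that each p-value covers only the spread between such libraries, and each comparison is of these cultures.

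The 33 libraries held between 23940837 and 51912815 counts (median 41420455). FOXL2 itself was at 50.5 to 196 FPKM (fragments per kilobase of gene length, scaled to library size) in every IND library and at most 0.131 FPKM in every other, as labelled. Day 10 IND replicate 2 stood apart. Its mean correlation over genes with its own group was 0.888, against 0.964 to 0.993 in libraries of the other groups. Its 5 pluripotent stem cell markers summed to 476 FPKM against 81.9 and 98.6 FPKM in the other libraries of its group. LIN28A made up most of this sum, at 455 FPKM. In every day 10 IND library POU5F1 was at no more than 0.360 FPKM (mean 24.6 FPKM at day 4) and NANOG at no more than 0.0484 FPKM. Where a named member was called at day 10 only without day 10 IND replicate 2, the value without it is given. The value with all libraries of the group did not pass the test and is not given for most of these members. All 6 coelomic epithelium markers were found. Their sum, most of which was KRT19, was 273 to 418 FPKM in CTRL from day 10 to day 14 and 201 to 645 FPKM in IND, while the other markers did not all follow the sum and are given beside ITGA3.

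Of the 38 members, 30 had at least 1 count in all 33 libraries, 29 passed the filter on low counts in all 10 comparisons and 33 in at least 1. The 5 that passed in none were ITGAD, ITGAL, ITGAM, ITGAX and ITGB7, leukocyte integrin subunits with at most 22 counts in any library. LAMB4 passed in 1 comparison, ITGB6 in 4, ITGA10 in 7 and ITGB3 in 9.

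Levels are given in FPKM, which is per gene length and so can be set side by side between genes. Averaged over the 33 libraries, LAMC1, the common gamma chain, was the highest member at 120 FPKM, followed by ITGB1, the beta subunit shared by most integrins, at 81.4 FPKM and LAMB1 at 74.1 FPKM. LAMB2 followed at 36.7 FPKM, LAMA5 at 36.0 FPKM, LAMA1 at 17.3 FPKM, ITGAV at 17.0 FPKM, ITGA5 at 15.5 FPKM and ITGA3 at 15.5 FPKM. The lowest of the members tested in all comparisons was LAMA3 at 0.191 FPKM. LAMB3, a beta chain of epithelial basement membranes, was at 1.04 FPKM.

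**Figure D1:**
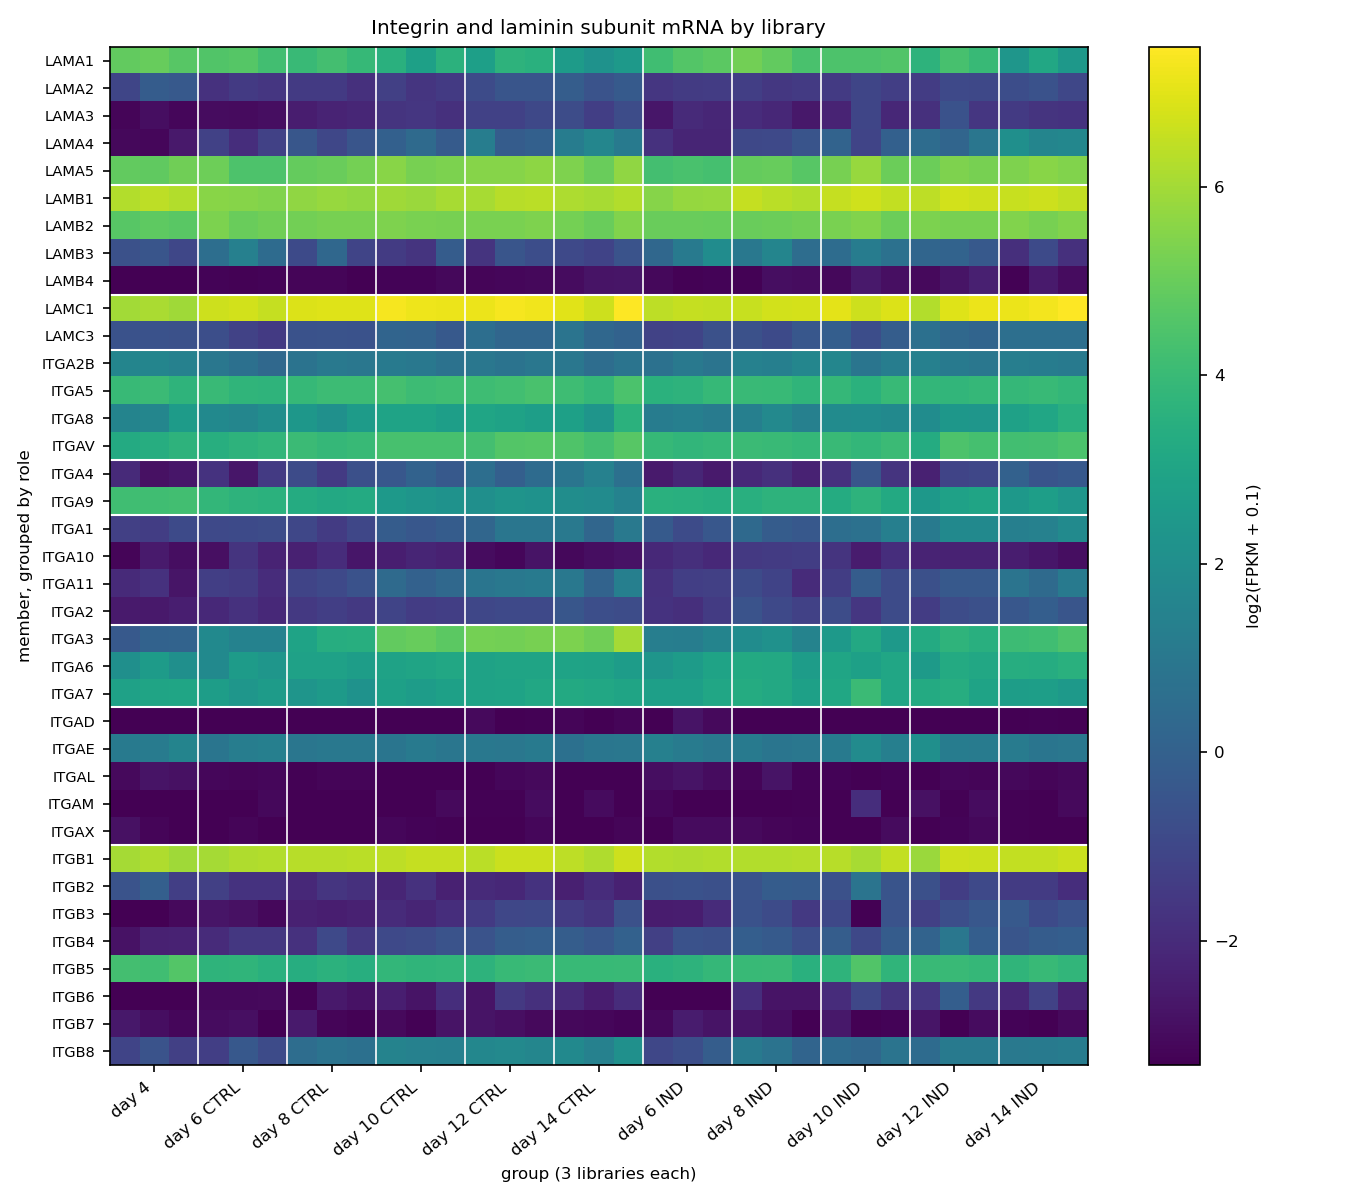
Level of 37 of the 38 members (rows, grouped by role, white lines between roles) in each of the 33 libraries (columns, 3 per group), as log2(FPKM + 0.1). LAMC1, ITGB1 and LAMB1 were high in every group, ITGA3 brightened from day 4 to day 14 more in CTRL than in IND, and the leukocyte alpha subunits other than ITGAE were dark throughout.

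The first comparison, called DIFF, set CTRL of each day against day 4 and asked how the members changed during differentiation without FOXL2 activation. Many members changed, and more of them rose than fell from day 8 on. At day 6, 5 of 30 tested members were upregulated and 7 downregulated in the edgeR quasi-likelihood test (Benjamini-Hochberg adjusted p under 0.05), when 11% of all genes tested were called higher and 10.6% lower. At day 8 the members called were 15 higher and 8 lower of 31 (18.1% and 18.9% of all genes). At day 10 they were 19 higher and 7 lower of 31 (23.1% and 22% of all genes). At day 12 they were 19 higher and 5 lower of 30 (24.4% and 23.8% of all genes), and at day 14, 18 higher and 5 lower of 31 (24.6% and 22.9% of all genes). The share of members called higher was 48.4% to 63.3% at days 8 to 14, and the share called lower was 16.1% to 25.8%. The 5 comparisons share the day 4 libraries.

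Over the 5 days, 21 members were called higher on at least 1 day and lower on none, 8 were called lower and higher on none, and 3 tested members (ITGA10, ITGA5 and ITGAE) were never called. The share of all genes counted over the 5 days in this way is not given, so these counts describe the members only. ITGA3, LAMA4, LAMB2 and LAMC1 were upregulated on all 5 days, and ITGA2B, ITGA9, ITGB2 and ITGB5 were downregulated on all 5.

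Among the laminin alpha chains, which carry the site that integrins bind, LAMA1, the alpha chain of the earliest embryonic basement membranes, fell, while LAMA4 and LAMA3 rose from low levels. LAMA1 was at 29.5, 31.6 and 25.8 FPKM at day 4 and at 6.03, 4.46 and 5.56 FPKM in day 14 CTRL. The groups did not overlap, and the log2 fold change was -2.46 ± 0.14 (SE; adjusted p = 2.65e-06, edgeR). The level of the pluripotent stem cell markers fell beside it, from a sum of 479 to 528 FPKM at day 4 to at most 40.3 FPKM in day 14 CTRL (5 of 5 found, of which 1, NANOG, had 3 counts or fewer in every library of both groups). LIN28A made up most of the sum in both groups (means 459 and 24.8 FPKM). POU5F1 (24.6 to 0.0372 FPKM) and DPPA4 (24.6 to 10.2 FPKM) also fell, while TDGF1 overlapped between the groups. The part of these markers in the fall of LAMA1 was not tested. In these bulk libraries, fewer cells of a type and less RNA per cell cannot be told apart.

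LAMA4, a chain of vascular and mesenchymal basement membranes, was at 0.0187, 0.0149 and 0.0662 FPKM at day 4 and at 2.22, 3.05 and 2.04 FPKM in day 14 CTRL. Its log2 fold change grew from 3.01 ± 0.53 at day 6 to 6.13 ± 0.43 at day 14 (adjusted p = 0.00215 and 6.16e-06, edgeR). LAMA3 stayed lower, rising from 0.0178 ± 0.0111 FPKM (SD, n = 3) at day 4 to 0.419 ± 0.097 FPKM in day 14 CTRL (log2 fold change 4.52 ± 0.42). LAMA5, the most widespread alpha chain of later epithelia, was called higher only at day 10 (0.44 ± 0.12) and day 12 (0.59 ± 0.11), where its mean was 42.2 and 47.5 FPKM against 31.1 FPKM at day 4. LAMA2, the alpha chain best known in muscle, was called lower at days 6, 8 and 10 (log2 fold change -1.45, -1.42 and -1.23) and was back at 0.706 ± 0.115 FPKM in day 14 CTRL, against 0.624 ± 0.220 FPKM at day 4.

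The beta and gamma chains changed less. LAMB1 fell by 0.78 ± 0.12 on the log2 scale at day 6, from 78.9 ± 5.7 to 45.5 ± 2.4 FPKM (adjusted p = 8.44e-04, edgeR), was still lower at days 8 and 10, and was not called at days 12 and 14. LAMB2 rose from 26.5 ± 1.4 FPKM to between 36.2 and 40.5 FPKM on the later days. LAMC1, which is part of nearly all laminin trimers, rose from 64.6 ± 3.8 FPKM at day 4 to 154 ± 9.7 FPKM in day 12 CTRL (log2 fold change 1.24 ± 0.10), with no overlap. LAMC3 was upregulated from day 10 on and rose from 0.556 ± 0.012 FPKM at day 4 to 1.26 ± 0.37 FPKM in day 14 CTRL (log2 fold change 1.16 ± 0.24). LAMB3 was called on day 6 alone, higher by 1.74 ± 0.31 on the log2 scale.

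The integrin alpha subunits that bind laminin are ITGA3, ITGA6 and ITGA7, and ITGA3 made the largest change of them. It was at 0.702, 0.969 and 0.999 FPKM at day 4, at 7.56, 10.5 and 10.9 FPKM in day 8 CTRL and at 40.2, 35.2 and 64.9 FPKM in day 14 CTRL. Every day 4 library was below every later CTRL library, and the log2 fold change was 1.71 ± 0.18, 3.44 ± 0.19, 5.04 ± 0.16, 5.37 ± 0.15 and 5.69 ± 0.27 from the first of these days to the last (adjusted p from 7.47e-05 at day 6 to 2.75e-07 at day 10, edgeR). ITGA6 rose from 4.67 ± 1.10 FPKM to 7.11 ± 0.80 FPKM in day 14 CTRL (log2 fold change 0.59 ± 0.17). ITGA7 was lower at days 6 and 8 (-0.42 ± 0.13 and -0.60 ± 0.13) and was not called after that.

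ITGA4 and ITGA9 bind fibronectin, VCAM1 and osteopontin among other ligands, and they went opposite ways. ITGA4, known in neural crest, blood and mesoderm, was at 0.141, 0.0392 and 0.0565 FPKM at day 4 and at 1.71, 2.62 and 1.51 FPKM in day 14 CTRL (log2 fold change 4.61 ± 0.43, adjusted p = 3.19e-05, edgeR). The summed level of the 5 neural crest and glia markers rose beside it, from 15.9 to 26.1 FPKM at day 4 to 109 to 186 FPKM in day 14 CTRL. All 5 were found, and 1 of them had 3 counts or fewer in every day 4 library. That of the 6 neuron markers rose from 4.79 to 22.7 FPKM to 109 to 187 FPKM (all 6 found, 1 with 3 counts or fewer in every day 4 library), and the part of these cells in the rise of ITGA4 was not tested. ITGA9 was at 18.1, 18.0 and 18.2 FPKM at day 4 and fell to 3.79, 3.63 and 2.66 FPKM in day 14 CTRL, with a log2 fold change of -2.45 ± 0.14 (adjusted p = 2.75e-06, edgeR).

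Of the collagen-binding alpha subunits, ITGA1, ITGA2 and ITGA11 rose and ITGA10, at no more than 0.207 FPKM in any day 4 or CTRL library, was not called. ITGA11, found on mesenchymal cells, went from 0.129 ± 0.070 FPKM at day 4 to 1.88 ± 0.15 FPKM in day 12 CTRL (log2 fold change 3.86 ± 0.36). Of the subunits that bind the RGD motif of fibronectin and vitronectin, ITGAV rose from 11.0 ± 1.6 FPKM to 22.5 ± 3.4 FPKM in day 14 CTRL and ITGA8 was called higher from day 10. ITGA5, the fibronectin receptor subunit, was between 14.0 and 18.7 FPKM in every CTRL group. ITGA2B was lower on each day, at 1.49 to 1.83 FPKM against 2.80 FPKM at day 4.

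Among the beta subunits, ITGB1 rose from 66.2 ± 5.8 FPKM to 93.3 ± 8.4 FPKM in day 12 CTRL (log2 fold change 0.48 ± 0.11) and was not called at day 14. ITGB8, which pairs with ITGAV to release active TGF-beta, rose from 0.417 ± 0.134 FPKM to 3.37 ± 0.76 FPKM in day 14 CTRL (2.99 ± 0.25). ITGB4, the partner of ITGA6 in hemidesmosomes, rose from 0.0828 ± 0.0348 FPKM to 0.801 ± 0.132 FPKM (3.24 ± 0.36). ITGB5 was lower on each day, by between 0.41 and 0.85 on the log2 scale. ITGB2 was lower by 2.32 ± 0.44 at day 14, at 0.118 ± 0.037 FPKM against 0.580 ± 0.280 FPKM. ITGB3 had 0, 0 and 3 counts at day 4 and 43, 26 and 57 in day 14 CTRL, and ITGB6 0, 0 and 0 counts and 25, 11 and 18. No fold is given for either, since day 4 was at or under the floor of 3 counts per library in each replicate.

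The second comparison, called IND, set IND against CTRL of the same day and asked what FOXL2 activation with the compounds changed. Fewer members were called than in DIFF, and the laminin-binding ITGA3 and the RGD-binding ITGA8 were the most often lower, with ITGA9, LAMB1 and ITGB2 the most often higher. At day 6, 3 of 31 tested members were upregulated and 1 downregulated in the same edgeR test (1.29% and 2.37% of all genes). At day 8 the counts were 9 and 3 of 31 (7.49% and 6.67% of all genes). At day 10 they were 2 and 2 of 32 (0.856% and 1.18% of all genes), at day 12 they were 1 and 5 of 32 (2.38% and 3.04% of all genes), and at day 14 they were 3 and 5 of 32 (3.21% and 5.22% of all genes). The share of the members called higher at day 8 was 29.0%, and that called lower at days 12 and 14 was 15.6%.

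These counts moved when 1 library was left out. At day 6 they fell to 0 members without IND replicate 2, 1 without CTRL replicate 1 or CTRL replicate 3, and 2 without IND replicate 3. At day 10 they fell to 0 on leaving out any library other than IND replicate 2. Without day 10 IND replicate 2, 8 of 33 members were called higher and 9 lower at day 10 (8.74% and 9.51% of all genes). Without day 12 IND replicate 1, 6 of 33 were called higher and 6 lower at day 12 (4.16% and 5.49% of all genes), while leaving out any day 12 CTRL library left 2 called and leaving out IND replicate 2 left 3. The mean correlation of day 12 IND replicate 1 with its own group was 0.964, against 0.976 and 0.977 for the others. Of the day 12 libraries, leaving out this one gave the most calls, so day 12 calls made only without it are the most favourable case. At day 14, 5 were called without CTRL replicate 1, IND replicate 2 or IND replicate 3, and at day 8, 19 without IND replicate 3. Over the 5 days, 9 members were called higher on at least 1 day and lower on none, 5 lower and higher on none, and 2, ITGA7 and LAMA3, both ways on different days. The other 17 tested members were called on no day. The share of all genes is not given for the counts over the 5 days or for the other left-out libraries, so those counts describe the members only.

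**Figure D2:**
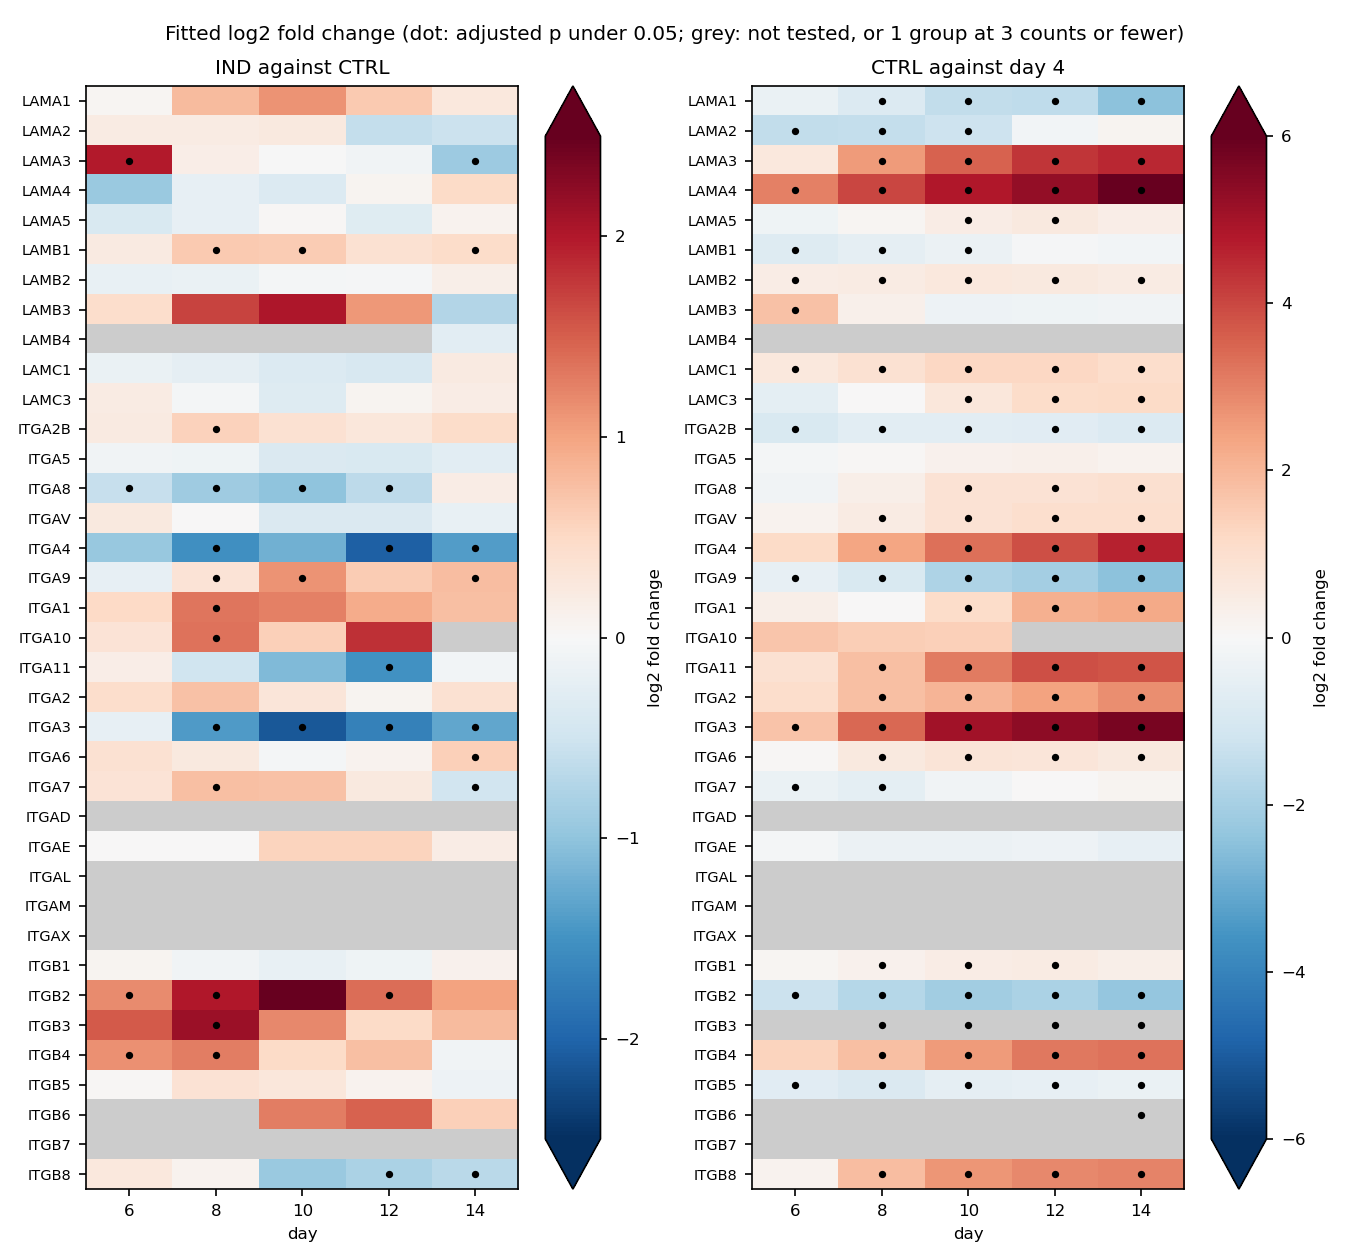
Fitted log2 fold change of 37 members (rows, grouped by role) on each day (columns) for IND against CTRL (left, scale to 2.5 either way) and CTRL against day 4 (right, scale to 6 either way). Black dots mark adjusted p under 0.05, and grey marks a member that was not tested or a group with 3 counts or fewer in every library. ITGA3 was red in the right panel and blue in the left from day 8 on.

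ITGA3 (ENSG00000005884, plus strand, chr17:50055968-50090481 in GRCh38) differed between the arms on 4 of 5 days. In day 8 CTRL it was at 7.56, 10.5 and 10.9 FPKM and in day 8 IND at 3.70, 4.34 and 2.75 FPKM. In day 10 CTRL it was at 29.9, 31.1 and 26.8 FPKM and in day 10 IND at 5.44, 9.21 and 5.47 FPKM. In day 14 CTRL it was at 40.2, 35.2 and 64.9 FPKM and in day 14 IND at 16.9, 17.9 and 22.0 FPKM. Every IND library was thus below every CTRL library of its day from day 8 to day 14, while its group mean was higher on each later day in both arms. From day 8 to day 14 the log2 fold change was -1.42 ± 0.20, -2.12 ± 0.23, -1.70 ± 0.13 and -1.29 ± 0.25 (adjusted p = 0.00558, 0.0120, 4.91e-04 and 0.0273, edgeR). At day 10 it was -2.42 ± 0.08 (adjusted p = 1.14e-09) without replicate 2, but the day 10 call was lost on leaving out any other library (adjusted p up to 0.0950 over the alternatives tried). The day 14 call was lost without IND replicate 1 or IND replicate 2 (up to 0.0914).

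Of the 6 coelomic epithelium markers, 4 had lower mean levels in IND beside ITGA3 at days 8, 10, 12 and 14, and the other markers, KRT19 and MSLN, at day 14 alone of these days. WT1 was at 29.7 to 35.3 FPKM in day 10 CTRL and 5.27 to 8.21 FPKM in day 10 IND, and GATA4 at 93.1 to 113 FPKM and 40.3 to 57.9 FPKM. UPK3B was at 5.45 to 8.50 FPKM in day 10 CTRL and 2.85 to 3.37 FPKM in IND, and LHX9 at 0.171 to 0.214 FPKM and at most 0.0255 FPKM. These 4 did not overlap between the arms at day 10, whereas KRT19 (226 to 288 FPKM in CTRL, 219 to 573 FPKM in IND) and MSLN (0.991 to 1.12 and 0.895 to 2.82 FPKM) did. By day 14 the means of WT1 were 35.3 FPKM in CTRL and 23.6 FPKM in IND. The part of coelomic epithelium cells in the levels of ITGA3 and of the other members lower in IND was not tested.

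ITGA9 (ENSG00000144668, plus strand, chr3:37452115-37823514) went the other way after day 6. In day 10 CTRL it was at 5.46, 4.87 and 4.49 FPKM and in day 10 IND at 9.93, 12.4 and 9.50 FPKM. In day 14 CTRL it was at 3.79, 3.63 and 2.66 FPKM and in day 14 IND at 5.39, 6.63 and 5.04 FPKM. The groups did not overlap at either day, and the IND means were below the 18.1 ± 0.084 FPKM of day 4. The log2 fold change was 0.35 ± 0.07 at day 8, 1.11 ± 0.15 at day 10 and 0.77 ± 0.14 at day 14 (adjusted p = 0.00967, 0.0206 and 0.00656, edgeR). At day 12 it was 0.64 ± 0.16 with an adjusted p of 0.0531, and 0.78 ± 0.08 (adjusted p = 5.54e-04) without day 12 IND replicate 1. The day 10 call was lost on leaving out any library other than IND replicate 2 (adjusted p up to 0.160 over the alternatives tried), and without that replicate the change was 0.98 ± 0.08 (adjusted p = 2.73e-06).

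ITGA8 (ENSG00000077943, minus strand, chr10:15513949-15720125), whose main ligand is nephronectin, was lower in IND up to day 12. At day 6 CTRL held 3.40, 2.97 and 3.82 FPKM and IND 2.26, 2.40 and 2.15 FPKM. At day 10 CTRL held 7.65, 7.52 and 6.49 FPKM and IND 3.59, 3.70 and 3.38 FPKM. At day 14 the arms overlapped, with 6.94, 4.91 and 11.9 FPKM in CTRL and 7.09, 8.36 and 11.3 FPKM in IND. The log2 fold change was -0.57 ± 0.13, -0.88 ± 0.15, -1.01 ± 0.12 and -0.65 ± 0.15 at days 6, 8, 10 and 12 (adjusted p = 0.0159, 0.00358, 0.0150 and 0.0393, edgeR). Over the alternatives tried the adjusted p reached 0.330, 0.0223, 0.131 and 0.162 on these days, so that only the day 8 call held under each of them. Without day 10 IND replicate 2 the day 10 value was -1.04 ± 0.09 (adjusted p = 3.13e-06).

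ITGA4 was lower in IND at days 8, 12 and 14. In day 14 CTRL it was at 1.71, 2.62 and 1.51 FPKM and in day 14 IND at 0.930, 0.594 and 0.686 FPKM, with no overlap. The log2 fold change was -1.54 ± 0.32, -2.05 ± 0.43 and -1.40 ± 0.23 (adjusted p = 0.00786, 0.0304 and 0.00316, edgeR), and at day 10 it was -1.94 ± 0.22 (adjusted p = 3.27e-05) without replicate 2, against an adjusted p of 0.333 with it. The day 12 call was lost without any 1 of the CTRL libraries or IND replicate 2 (adjusted p up to 0.102 over the alternatives tried). In 1 fit over all 33 libraries the day 8 and day 14 calls of ITGA4 were lost (adjusted p = 0.0519 and 0.0915, edgeR). The neural crest and glia markers were lower beside it, at 37.9 to 40.3 FPKM in day 8 IND against 63.3 to 97.5 FPKM in CTRL, and at 61.4 to 73.3 against 109 to 186 FPKM at day 14, with all 5 above 3 counts in some library of each group. The neuron markers summed to 46.4 to 63.9 FPKM in day 14 IND and to 109 to 187 FPKM in CTRL. STMN2 was the largest part of this sum (means 26.4 and 99.2 FPKM). DCX did not follow the sum, with means of 21.7 FPKM in IND and 20.1 FPKM in CTRL and overlap between the arms. The part of neural crest cells, glia and neurons in the difference of ITGA4 was not tested.

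The collagen-binding subunits were split. ITGA1 was higher at day 8, at 1.20, 0.773 and 0.685 FPKM in IND against 0.394, 0.271 and 0.388 FPKM in CTRL (log2 fold change 1.34 ± 0.23, adjusted p = 0.00487, edgeR). It did not overlap at days 10, 12 and 14 either, but was called there only at day 10 without replicate 2 (1.36 ± 0.23, adjusted p = 0.0112) and at day 12 without replicate 1 (1.14 ± 0.23, adjusted p = 0.0464). ITGA11 was lower at day 12, at 0.530, 0.719 and 0.715 FPKM in IND against 1.71, 1.93 and 2.00 FPKM in CTRL (-1.51 ± 0.16, adjusted p = 0.00222, edgeR), and at day 10 it was called only without replicate 2 (-1.55 ± 0.20, adjusted p = 2.46e-04). At day 14 its means were 1.67 ± 0.43 and 1.77 ± 0.73 FPKM, and the arms overlapped. ITGA10 was higher at day 8 by 1.36 ± 0.35, from 0.105 ± 0.050 to 0.270 ± 0.022 FPKM.

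**Figure D3:**
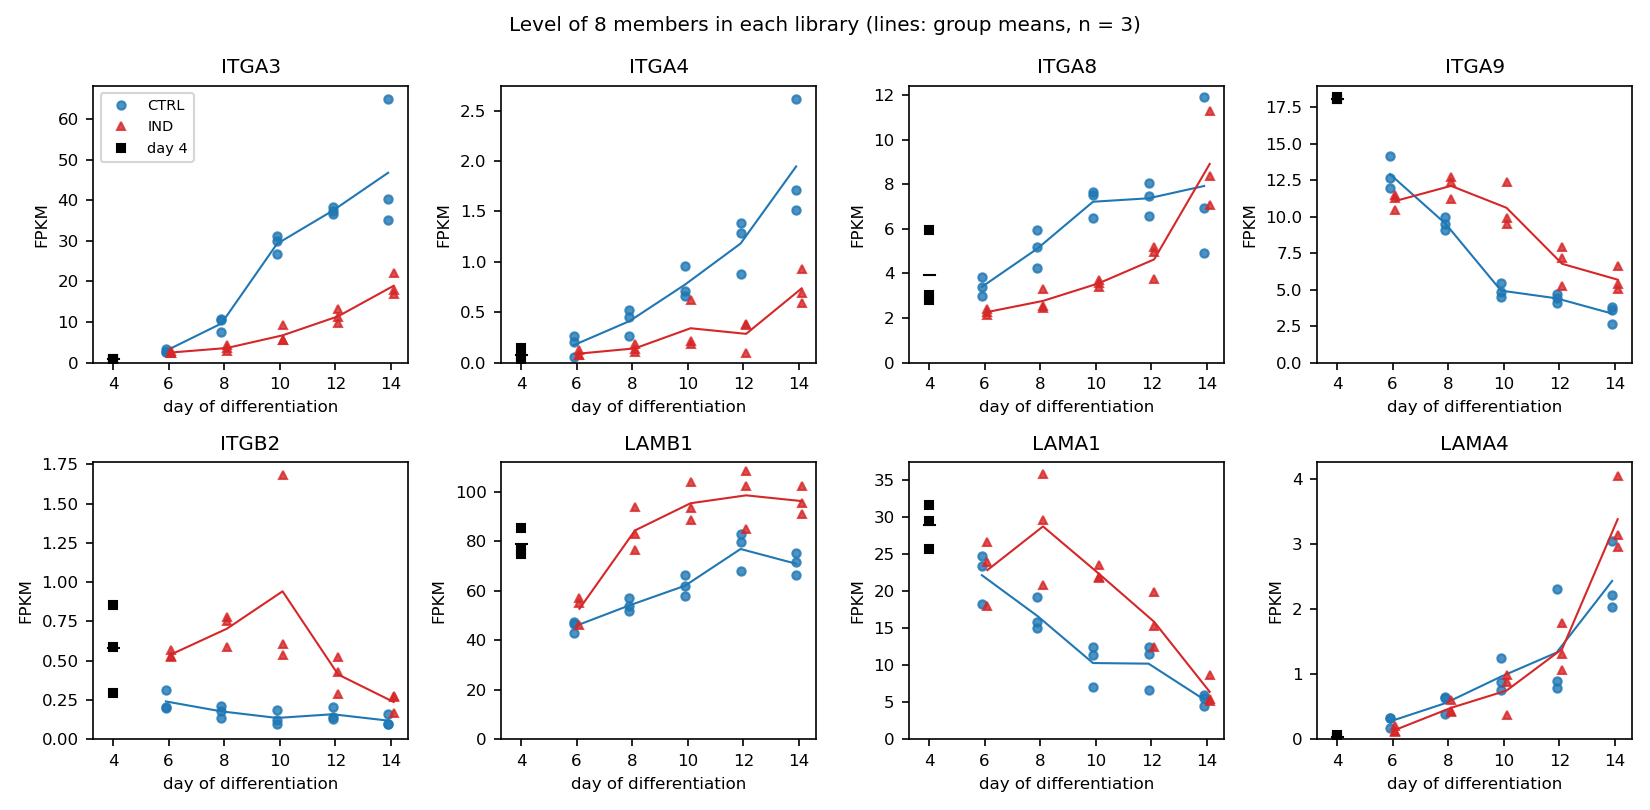
FPKM of 8 members in each library by day of differentiation, with day 4 as black squares, CTRL as blue circles, IND as red triangles and lines through the group means (n = 3 libraries, each panel from 0 on its own scale). IND lay below CTRL for ITGA3, ITGA4 and ITGA8 at day 8 and above it for ITGA9, ITGB2 and LAMB1, while LAMA4 rose in both arms.

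Among the laminin chains, LAMB1 (ENSG00000091136, minus strand, chr7:107923799-108003255) differed on 3 days. It was at 51.6, 56.9 and 53.7 FPKM in day 8 CTRL and at 93.7, 83.0 and 76.5 FPKM in day 8 IND. At day 14 it was at 71.4, 66.2 and 75.1 FPKM in CTRL and at 95.3, 102 and 91.2 FPKM in IND. The arms did not overlap at either day. The log2 fold change was 0.65 ± 0.08 at day 8, 0.63 ± 0.11 at day 10 and 0.45 ± 0.09 at day 14 (adjusted p = 5.13e-04, 0.0492 and 0.00747, edgeR), and the adjusted p at day 10 reached 0.324 over the alternatives tried and was 1.24e-04 without replicate 2 (0.56 ± 0.07). At day 12 it was called only without replicate 1 (0.46 ± 0.09, adjusted p = 0.00997).

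LAMA1 was at 35.9, 29.7 and 20.8 FPKM in day 8 IND and at 15.8, 19.2 and 15.0 FPKM in CTRL. At day 10 it was at 21.9, 21.8 and 23.6 FPKM in IND and at 11.4, 7.03 and 12.4 FPKM in CTRL. The arms did not overlap on either day, but neither difference passed the test (log2 fold change 0.79 ± 0.21 and 1.13 ± 0.22, adjusted p = 0.0549 and 0.0593, edgeR). LAMA3 was higher at day 6 (1.98 ± 0.41, adjusted p = 0.00999), at 0.107 ± 0.044 FPKM in IND. Day 6 CTRL held 0.0273 ± 0.0037 FPKM, from 14, 13 and 19 counts, and the day 6 call was lost without IND replicate 2. LAMA3 was lower at day 14 (-0.91 ± 0.22, adjusted p = 0.0219), at 0.222 ± 0.033 against 0.419 ± 0.097 FPKM. At day 10 it was called lower only without replicate 2 (-0.79 ± 0.22, adjusted p = 0.0221), which held 0.379 FPKM. With all libraries the arms overlapped at day 10, at 0.205 ± 0.151 FPKM in IND and 0.206 ± 0.022 FPKM in CTRL. The day 14 call was lost without CTRL replicate 1, IND replicate 2 or IND replicate 3 (adjusted p up to 0.323 over the alternatives tried). LAMB3 was at 1.93, 2.94 and 1.33 FPKM in day 8 IND and at 0.432, 1.12 and 0.363 FPKM in CTRL, with an adjusted p of 0.0817. The remaining laminin chains were not called on any day in the pairwise fits with no library left out, and LAMC1 was lower at day 10 without replicate 2 (-0.24 ± 0.08). LAMB4, at no more than 19 counts in any day 12 library, was called higher at day 12 without replicate 1 (2.19 ± 0.59, adjusted p = 0.0484).

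Of the beta subunits, ITGB2, which pairs with the leukocyte alpha subunits, was higher in IND at days 6, 8 and 12. In day 8 IND it was at 0.585, 0.776 and 0.749 FPKM and in CTRL at 0.136, 0.214 and 0.180 FPKM. The log2 fold change was 1.19 ± 0.26 at day 6, 2.00 ± 0.24 at day 8 and 1.40 ± 0.31 at day 12 (adjusted p = 0.0126, 2.76e-04 and 0.0354, edgeR). At day 10 it was 2.10 ± 0.27 (adjusted p = 1.06e-04) without replicate 2, which alone held 1.68 FPKM. The day 6 call was lost without CTRL replicate 3 or IND replicate 2 (adjusted p up to 0.132 over the alternatives tried). The day 12 call was lost on leaving out any day 12 CTRL library, where only ITGA3 and ITGA11 were still called. Its partners ITGAL, ITGAM, ITGAX and ITGAD had at most 22 counts in any library. All 6 leukocyte markers were found, and their sum was 2.34 to 2.82 FPKM in day 8 IND and 1.60 to 2.12 FPKM in CTRL, with 1 and 2 of them at 3 counts or fewer in every library. LAPTM5 made up most of the sum (means 1.80 and 1.06 FPKM). CORO1A (0.638 and 0.672 FPKM), CD48 and CD53 had lower means in day 8 IND, and PTPRC and SPI1 higher ones at few counts. PTPRC, which defines leukocytes, had at most 11 counts in day 8 IND and 0 in CTRL. The part of leukocytes in the level of ITGB2 was not tested.

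ITGB3 was higher in IND at day 8 (2.14 ± 0.36, adjusted p = 0.00249, edgeR), at 96, 78 and 55 counts against 20, 16 and 16, and ITGA2B, its platelet partner, was higher by 0.57 ± 0.13, at 2.68 ± 0.28 against 1.82 ± 0.17 FPKM. All 5 megakaryocyte and platelet markers were found, and in each arm 3 of them had 3 counts or fewer in every day 8 library. Their sum was 0.394 to 0.906 FPKM in day 8 IND and 0.671 to 0.814 FPKM in CTRL. The 6 endothelial markers, all above 3 counts, summed to 16.1 to 17.7 FPKM in day 8 IND and 7.36 to 11.1 FPKM in CTRL, and their part in these differences was not tested. ITGB4 was higher at day 6 (1.15 ± 0.29) and day 8 (1.27 ± 0.31), and ITGB8 lower at day 12 (-0.80 ± 0.18) and day 14 (-0.68 ± 0.15). Each of these 4 calls was lost without some library, with adjusted p up to 0.217, 0.101, 0.145 and 0.180 over the alternatives tried. Without day 10 IND replicate 2, which held 0 counts of ITGB3, 4 of these subunits were called at day 10 as well. ITGB3 was higher by 1.76 ± 0.29 (adjusted p = 8.25e-04), ITGA2B by 0.56 ± 0.14 (0.0156) and ITGB4 by 0.72 ± 0.19 (0.0159), and ITGB8 was at -0.82 ± 0.11 (2.44e-04). ITGB1, ITGB5, ITGAV and ITGA5 were not called on any day in the pairwise fits with no library left out. ITGAV and ITGA5 were lower at day 10 without replicate 2 (-0.30 ± 0.06 and -0.26 ± 0.07) and ITGA5 at day 12 without replicate 1 (-0.39 ± 0.08).

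A test of whether the difference between IND and CTRL itself differed between the 5 days called 3 of the 34 members tested, against 2.38% of all genes. These were ITGA9 (adjusted p = 0.00119, edgeR), ITGA3 (adjusted p = 0.00219) and ITGA7 (adjusted p = 0.0284). ITGA7, known in muscle, was higher in IND at day 8 (0.76 ± 0.15), at 9.91, 9.07 and 6.90 FPKM against 4.93, 5.91 and 4.46 FPKM. It was lower at day 14 (-0.49 ± 0.10), at 6.42, 6.55 and 5.46 FPKM against 9.27, 8.95 and 7.76 FPKM. The first call was lost without CTRL replicate 1 (adjusted p = 0.0571). The second was lost without CTRL replicate 1 or IND replicate 3, and in 1 fit over all 33 libraries. All 3 interaction calls were lost without the libraries numbered 1 or those numbered 3. At day 10 ITGA7 was called only without IND replicate 2 (0.34 ± 0.08, adjusted p = 0.00744). All 6 striated muscle markers were found. Their sum was 5.11 to 5.50 FPKM in day 8 IND and 8.79 to 10.1 FPKM in CTRL, and 3.83 to 5.42 against 4.71 to 7.65 FPKM at day 14. Most of it was TNNT2 (means 4.42 and 8.10 FPKM at day 8), while MYH6, MYH7 and MYOD1, all low, had higher means in day 8 IND. The part of muscle cells in the level of ITGA7 was not tested. In the pairwise fits with no library left out, ITGA6 was called at day 14 alone, higher in IND by 0.60 ± 0.10, at 10.4, 10.2 and 11.4 FPKM against 7.67, 7.47 and 6.20 FPKM. This call was lost in 1 fit over all 33 libraries (adjusted p = 0.0805, edgeR). ITGA6 was also called at day 12 without IND replicate 1 (0.28 ± 0.07, adjusted p = 0.0385).

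The make-up of the chains shows the same values as shares of summed FPKM. LAMA1 held 47.7% ± 5.4 (SD, n = 3) of the summed laminin alpha chain FPKM at day 4 and LAMA5 51.2% ± 5.3, and in day 14 CTRL they held 10.6% ± 1.4 and 82.1% ± 3.2. In IND the LAMA1 share was 48.6% ± 4.8 at day 8 against 32.7% ± 4.4 in CTRL, and 34.5% ± 6.4 at day 10 against 18.9% ± 4.0, or 37.9% ± 3.6 without replicate 2. At day 14 it was 11.5% ± 2.6 in IND and 10.6% ± 1.4 in CTRL, less than the spread between libraries.

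Among the laminin-binding alpha subunits, ITGA7 held most of the summed FPKM at day 4 (58.4% ± 4.4), with ITGA6 at 34.9% ± 4.8 and ITGA3 at 6.68% ± 0.83. In CTRL the ITGA3 share reached 66.4% ± 3.2 at day 10 and 73.6% ± 7.6 at day 14. In IND it was 25.9% ± 2.1 at day 10, where ITGA7 held 42.2% ± 7.2, and 52.8% ± 3.5 at day 14. Without day 10 IND replicate 2, the shares at day 10 were 24.6% for ITGA3, 37.2% for ITGA6 and 38.1% for ITGA7. LAMB1 made up 58.5% ± 0.7 of the laminin beta chain FPKM in day 8 CTRL and 70.2% ± 3.1 in day 8 IND.

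**Figure D4:**
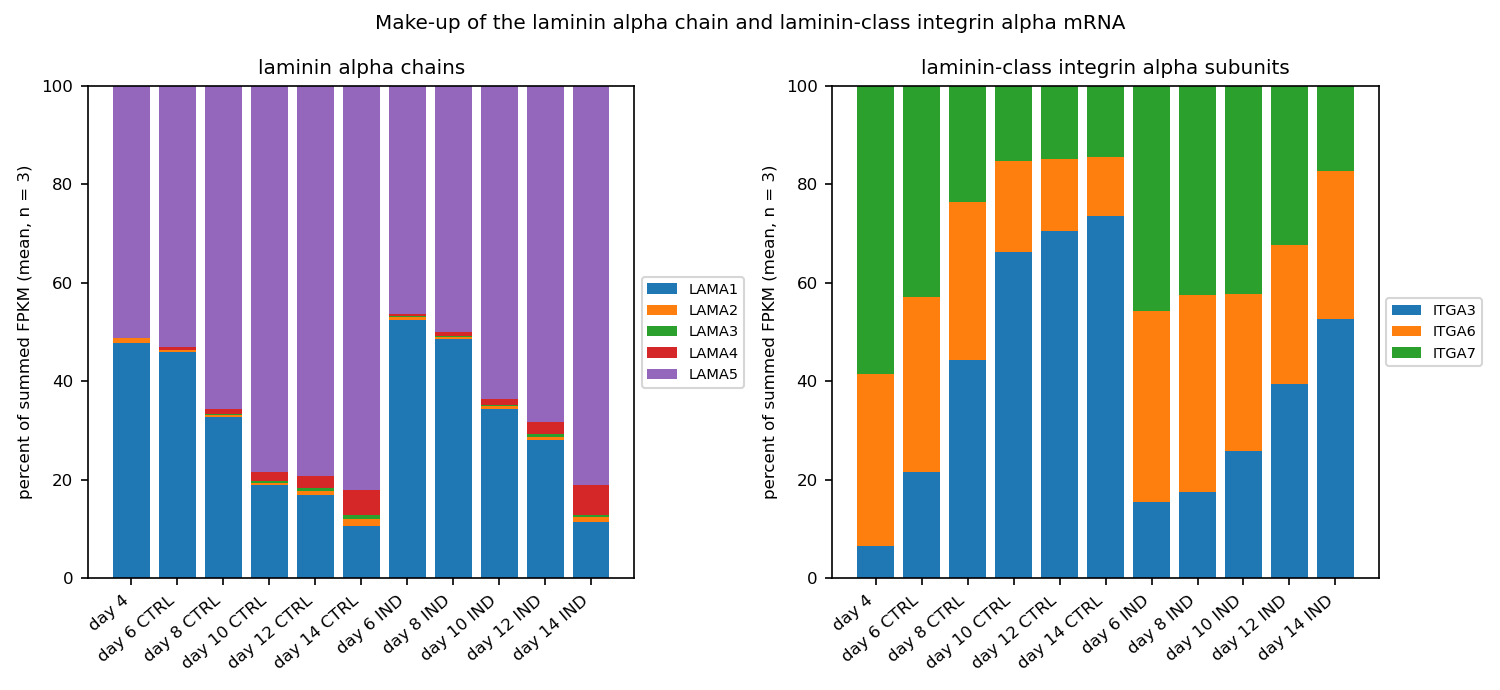
Mean share of summed FPKM (percent, n = 3 libraries) held by each laminin alpha chain (left) and each laminin-binding integrin alpha subunit (right) in the 11 groups. LAMA1 fell from 47.7% at day 4 to 10.6% in day 14 CTRL, and ITGA3 rose from 6.68% to 73.6%, with day 10 IND at 25.9%.

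Promoter windows from RefSeq (GRCh38.p14, 250 bases before to 50 after a start) were matched by symbol for 26 of the 38 members (33 windows). The 4 printed belong to ITGA4 and ITGA8, which were lower in IND, LAMB1, which was higher, and LAMA4, which had the largest rise in DIFF among members given a fold, and they were chosen after the values were seen. Capitals mark a match on either strand. The forkhead core was searched as TAAACA. An element described for FOXL2 was searched as GTCAAGG. The letters for GATA factors were AGATAA. Those for the GC box were CCGCCC. GC box matches can overlap each other.
ITGA4, chr2:181457136-181457435, plus strand: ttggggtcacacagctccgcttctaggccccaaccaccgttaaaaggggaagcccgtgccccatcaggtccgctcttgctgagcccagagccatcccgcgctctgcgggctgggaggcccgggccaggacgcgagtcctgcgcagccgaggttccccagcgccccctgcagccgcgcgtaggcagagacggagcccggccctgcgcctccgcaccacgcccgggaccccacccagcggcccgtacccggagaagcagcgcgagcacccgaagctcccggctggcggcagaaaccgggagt
ITGA8, chr10:15719873-15720172, minus strand: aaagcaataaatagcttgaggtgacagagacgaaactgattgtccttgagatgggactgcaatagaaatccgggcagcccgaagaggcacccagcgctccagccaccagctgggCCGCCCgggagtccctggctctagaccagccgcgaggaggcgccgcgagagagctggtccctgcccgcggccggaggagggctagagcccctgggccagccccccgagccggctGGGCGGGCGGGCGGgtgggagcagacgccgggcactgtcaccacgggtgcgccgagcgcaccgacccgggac
LAMB1, chr7:108003112-108003411, minus strand: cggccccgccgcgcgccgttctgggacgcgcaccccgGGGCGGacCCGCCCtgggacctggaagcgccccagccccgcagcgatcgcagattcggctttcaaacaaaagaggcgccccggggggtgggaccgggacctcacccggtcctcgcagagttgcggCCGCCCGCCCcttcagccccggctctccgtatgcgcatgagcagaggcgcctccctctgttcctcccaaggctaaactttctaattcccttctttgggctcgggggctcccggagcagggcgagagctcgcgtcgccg
LAMA4, chr6:112254518-112254817, minus strand: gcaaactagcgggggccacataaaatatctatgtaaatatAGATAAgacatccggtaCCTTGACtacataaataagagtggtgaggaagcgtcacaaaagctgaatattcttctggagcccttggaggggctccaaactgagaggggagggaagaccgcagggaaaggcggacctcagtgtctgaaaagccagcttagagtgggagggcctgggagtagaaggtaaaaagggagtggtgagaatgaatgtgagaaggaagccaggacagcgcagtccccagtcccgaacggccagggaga

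The ITGA4 window held none of these letters. ITGA8 and LAMB1 each held 4 GC box matches. LAMA4 held the GATA letters from position -210 and the FOXL2 element from position -193 relative to the start, and no GC box. Over all 35116 windows, 12.3% held the forkhead core, 3.06% the FOXL2 element, 10.3% the GATA letters and 45.0% the GC box. Of the 33 windows of members, 6 held the forkhead core (of ITGA6, ITGB1, ITGB6, LAMB3 and LAMB4), 2 the FOXL2 element (ITGAV and LAMA4), 2 the GATA letters (the same members) and 19 the GC box. A match is a run of letters and not a site shown to be bound.

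The 3 lists of genes that work with these receptors and matrices were counted as well. Their calls come from the fits with no library left out and were not tried under the alternatives, so how far they depend on single libraries was not tested. Of 21 basement membrane partners, 6 were higher and 4 lower of 20 tested at day 8 in IND (7.49% and 6.67% of all genes), with a median log2 fold change of 0.32 against 0.0049 for all genes, and 4 of 20 were lower at day 6 (2.37% of all genes). NID2, which links laminin to collagen IV, was at 27.4 ± 2.3 FPKM in day 6 IND and 66.2 ± 15.3 FPKM in CTRL (-1.26 ± 0.14, adjusted p = 2.72e-04, edgeR). SMOC2 was lower at days 6, 8, 10 and 12 (log2 fold change between -1.02 and -0.71). FREM1, a protein of embryonic epithelial basement membranes, was higher at day 14, at 10.2 ± 0.96 against 4.51 ± 0.46 FPKM (1.19 ± 0.10, adjusted p = 1.19e-05, edgeR).

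Of 23 integrin ligands found, 4 were higher and 7 lower of 22 tested at day 14 in IND (3.21% and 5.22% of all genes). At day 8, 3 and 1 of 22 were called, when 7.49% and 6.67% of all genes were. SPP1, or osteopontin, a ligand of ITGA9 and ITGA4 among others, was at 17.9 ± 2.6 FPKM in day 14 IND and 50.1 ± 8.0 FPKM in CTRL (-1.47 ± 0.14, adjusted p = 1.23e-04, edgeR). TNC, or tenascin-C, was lower at days 10, 12 and 14 (-1.38, -2.04 and -1.99). In DIFF, 14 ligands were higher and 2 lower of 22 at day 14 (24.6% and 22.9% of all genes).

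Of 27 adhesion complex genes, which join integrins to actin, no more than 2 were higher and 4 lower on any day in IND. The 4 lower were of 26 tested at day 8 (6.67% of all genes), and the 2 higher of 27 at day 14 (3.21% of all genes). LIMS2, a partner of integrin-linked kinase, was higher at days 6 to 12 and reached 7.04 ± 0.95 FPKM in day 12 IND against 2.18 ± 0.39 FPKM in CTRL (1.71 ± 0.17, adjusted p = 0.00158, edgeR). TNS1, a tensin, was lower at days 6, 8 and 12 (-0.74, -1.05 and -0.82). ZYX, or zyxin, was lower at day 14, at 31.0 ± 2.7 against 46.3 ± 3.6 FPKM.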

How the data were processed

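Poly(A)-selected, non-directional RNA-seq libraries (33, in 11 groups of 3) were analysed. Per the labels and the methods of the study, the authors trimmed reads with fastp 0.23.2, mapped them to GRCh38 with HISAT2 2.0.5 and counted fragments per gene with featureCounts 1.5.0-p3. The deposited counts are whole numbers without normalization. The libraries keep no strand, so reads of overlapping genes on opposite strands cannot be told apart. The FPKM deposited by the authors equal counts per kilobase and per library total, times a constant of each library between 0.943 and 1.12.

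Of the members, 1 is counted but not reported here. The members and gene lists were chosen with earlier results of these data known. Counts were tested pairwise (IND against CTRL of a day, CTRL against day 4) with edgeR 4.0.16 in R 4.3.3 (filterByExpr, TMM, robust quasi-likelihood fit) over all genes that passed the filter, with Benjamini-Hochberg adjustment at 0.05, and 1 model tested the interaction of day and induction. SE is the absolute log2 fold change over the square root of F, and ± beside FPKM is the SD of 3 libraries. The rule for full statistics took up to 5 members with the largest change per direction among those called, whose average log2 CPM reached 1 and whose groups did not overlap. Other members were described by role to account for each, and some were chosen after their values were seen. Alternatives were DESeq2 1.42.0, RLE factors, no filter, a replicate block, limma 3.58.1 on log2(FPKM + 1) or log2(FPKM + 0.1), 1 fit over all libraries, and leaving out each library. The fits were tested on simulated counts with 200 genes changed 3-fold, drawn from genes at higher counts. The simulation used the same dispersion for every gene and no outlying library, so it does not cover low counts or such a library.

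Replicate pairs differed by more than sampling noise (chi-squared per gene 7.22 to 224 over 33 pairs).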

Additional observations from a re-analysis of the deposited data

Results flagged for a closer look

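The difference between IND and CTRL itself differed between days for ITGA3 (adjusted p = 0.00219), ITGA7 (adjusted p = 0.0284) and ITGA9 (adjusted p = 0.00119) in edgeR's quasi-likelihood test of the interaction with Benjamini-Hochberg adjustment. The adjusted p ranged over the alternatives tried from 2.29e-20 to 0.181 for ITGA3, from 5.38e-07 to 0.566 for ITGA7 and from 4.43e-08 to 0.0701 for ITGA9. Groups of 3 libraries are too small for the test for single outlying samples, so none was run.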

How the results depend on the processing

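The replicate numbers did not pair the libraries: deviations of same-numbered libraries from their group means correlated between -0.316 and 0.226 in the IND comparisons (4 of 15 pairs over 0.1) and between -0.300 and 0.484 in DIFF (6 of 15). With a replicate block, no member was called at day 10 in IND, against 4 without the block, and the other counts moved by no more than 1.5 times.

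Calls in DIFF ranged from 8 to 15 members at day 6 and from 18 to 29 at the other days over the alternatives. In IND, limma on log2(FPKM + 1) or log2(FPKM + 0.1) called 0 members at day 6 and 3 at day 12. The fit over all 33 libraries called 1 at day 6, 12 at day 10 and 3 at day 14. DESeq2 called 10 at day 10, 10 at day 12 and 7 in the interaction, and without the filter the counts were 7 at day 10 and 14 in the interaction. Leaving out 1 library gave 0 to 5 members at day 6, 8 to 19 at day 8, 0 to 17 at day 10, 2 to 12 at day 12, 5 to 10 at day 14 and 0 to 4 in the interaction. The cause was not tested.

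Of 1031 values of 80 named results under the alternatives, 918 kept their direction and side of the threshold, 113 kept the direction only and 0 reversed. These counts pool IND, DIFF and interaction results. In IND, the call of LAMB1 at day 10 was lost under 10 of 13 alternatives and that of ITGA8 at day 12 under 8. The IND calls of ITGA3 at days 8 and 12 were lost under none. No named DIFF result lost its call under more than 3 of 13. The interaction calls were each lost under 2 of 10. The pooled count does not give the stability of the IND calls alone. With 3 libraries per group, members near the floor of 3 counts carry little information.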
